A study of Mus musculus with 3 samples.

Results

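Chil3, Chil1, Retnla and Retnlg, 4 of the 32285 genes in the deposited matrices, were followed across marker-gated cell classes of a mouse lung cancer. Chil3 and Chil1 are chitinase-like genes, and Retnla and Retnlg are resistin-like genes. They were selected on measured values, namely differences between classes and libraries already seen in these data. Every level and ratio below is therefore a description and carries no test.

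Single-cell RNA sequencing (10x Genomics 3′ v3.1 chemistry on an Illumina NovaSeq) was run on non-small cell lung cancer of the mouse, and the series concerns immune cells after drug treatment. There were 3 groups, named PBS, PD-L1 and AI-Exo, each with 1 library. The title of the series speaks of exosomes that inhibit autophagy. The labels do not spell out the group names. They give no strain, age, tumour model, dose, time or number of pooled animals, so a difference between groups and a difference between 2 libraries cannot be told apart. Both comparisons, PD-L1 with PBS and AI-Exo with PBS, share the single PBS library.

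After filtering, the PBS, PD-L1 and AI-Exo libraries kept 9359, 9697 and 10457 barcodes (29513 in all), with medians of 4380, 3948 and 4425 unique molecular identifiers (UMIs) per barcode. Pairs of libraries shared 23 to 33 barcodes. A barcode was placed in the class with most of its 8 marker genes detected, and 2909 barcodes with under 3 markers or a tie stayed without a class. The 4 genes were left out of all marker lists. In each library 8 of 8 markers of classical monocytes, C1q macrophages, alveolar macrophages and mature neutrophils reached 10 CPM, counts per 1000000 UMIs of the class, in their own class. Levels are CPM of a gene's UMIs summed over a class, with exact 95% Poisson intervals. Ratios carry exact 95% conditional binomial intervals. All intervals cover counting error only and say nothing of the spread between animals.

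Chitinase-like proteins fold like chitinases but do not cleave chitin, and they are secreted into the airways. Chil3 encodes Ym1, which alveolar macrophages make in quantity and which interleukin 4 and interleukin 13 induce in other macrophages through STAT6. Chil1 encodes a related glycoprotein made by neutrophils, macrophages and epithelium. Resistin-like molecules are small secreted cysteine-rich proteins. Retnla (RELM-alpha) is a marker of macrophages activated by interleukin 4, and Retnlg (RELM-gamma) is known from bone marrow and neutrophils.

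Chil3, Retnla and Retnlg each have a near copy as a neighbour, and the promoter sequences of these neighbours are shown because the copies were highest in different classes or, for Chil4, hardly read at all. Retnla lies between Retnlb and Retnlg, and Chil3 lies between Chia1 and Chil4 among protein-coding genes. Chil1 lies apart from them, between Chit1 and Mybph. The promoter windows hold 250 bases before and 50 bases after the annotated start (RefSeq, GRCm38.p6), and 4 of 4 genes matched the RefSeq table. Capitals mark TTC and GAA with 4 bases between them, the spacing that STAT6 prefers, in the Retnla and Retnlg windows. In the Chil3 and Chil4 windows they mark TTC and GAA with 3 bases between them, the spacing of other STAT factors. Both patterns are palindromic, so a match counts for both strands. Retnla is at chr16:48842359-48842658 on the plus strand and Retnlg at chr16:48872358-48872657 on the plus strand. Chil3 is at chr3:106167515-106167814 and Chil4 at chr3:106219430-106219729, both on the minus strand.
Retnla: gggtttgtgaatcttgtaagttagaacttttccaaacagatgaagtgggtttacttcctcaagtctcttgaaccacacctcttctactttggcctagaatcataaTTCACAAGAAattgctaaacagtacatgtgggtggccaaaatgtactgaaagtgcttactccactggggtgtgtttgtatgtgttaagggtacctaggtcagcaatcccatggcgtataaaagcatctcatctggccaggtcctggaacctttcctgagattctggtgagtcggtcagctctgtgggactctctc
Retnlg: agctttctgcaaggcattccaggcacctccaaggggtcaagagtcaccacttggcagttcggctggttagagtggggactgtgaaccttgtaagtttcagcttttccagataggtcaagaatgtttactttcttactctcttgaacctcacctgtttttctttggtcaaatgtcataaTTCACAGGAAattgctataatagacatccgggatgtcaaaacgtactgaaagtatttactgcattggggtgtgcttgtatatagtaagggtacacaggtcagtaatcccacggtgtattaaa
Chil3: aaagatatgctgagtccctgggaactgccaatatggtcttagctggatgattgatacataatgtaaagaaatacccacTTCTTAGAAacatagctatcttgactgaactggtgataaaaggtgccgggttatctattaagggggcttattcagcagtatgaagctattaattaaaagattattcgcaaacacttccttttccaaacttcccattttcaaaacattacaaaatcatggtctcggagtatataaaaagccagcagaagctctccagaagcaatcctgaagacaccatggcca
Chil4: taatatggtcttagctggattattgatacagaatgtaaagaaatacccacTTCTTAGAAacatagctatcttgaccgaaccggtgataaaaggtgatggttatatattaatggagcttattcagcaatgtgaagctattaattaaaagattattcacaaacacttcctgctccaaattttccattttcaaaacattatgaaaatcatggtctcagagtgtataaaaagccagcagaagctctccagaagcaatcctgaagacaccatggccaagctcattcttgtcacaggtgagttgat

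The Retnla and Retnlg windows were 79.1% identical over 225 aligned bases, and the Chil3 and Chil4 windows 92.6% over 271. The pattern with 4 bases between was present in 6.95% of 32851 promoter windows of 300 bases, and that with 3 in 8.30%. Also searched were TTGCNNAA on both strands for C/EBP factors (10.8% of windows; found for Retnla, Retnlg and Chil4), TATAAA on the strand of the gene (8.32%; found for Retnla, Chil3 and Chil4) and ACTTCCT on both strands for PU.1 (9.35%; found for Retnla, Chil3 and Chil4), and no match overlapped another. None of these patterns was found in the Chil1 window. These matches are letters in a window and were not measured as binding sites. Between transcripts, identity was 84.5% for Retnla and Retnlg and 94.4% for Chil3 and Chil4. Over the last 300 bases, where a 3′ assay reads, it was 81.9% and 89.97%. How the counting treated reads that match both copies is not stated in the labels or headers. In spite of the close copy, Chil4 had at most 2 UMIs in any class of any library, while Chil3 had 91069, 56784 and 95503 UMIs in the PBS, PD-L1 and AI-Exo libraries. Retnlb had at most 5 UMIs in any class. Retn, which encodes resistin itself, was read mainly from mature neutrophils, at 10.9, 19.7 and 12.0 CPM.

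In the plot of levels by class, Chil1 and Retnlg peaked in neutrophils and Chil3 in alveolar macrophages. Retnla had no single highest class across the libraries. Over 11 classes in all 3 libraries, Chil3 was highest in alveolar macrophages (7624 to 9161 CPM), and the second class, classical monocytes, did not reach that range. Chil1 was highest in mature neutrophils (61.7 to 67.0 CPM), and no other of the 11 classes passed 4.72 CPM. Retnlg was also highest in mature neutrophils (2963 to 4964 CPM), ahead of nonclassical monocytes at 25.9 to 97.9 CPM. Granule-rich neutrophils, with only 16, 17 and 58 barcodes in PBS, PD-L1 and AI-Exo, are not among the 11 classes. They had 2153, 7996 and 4813 CPM of Retnlg, above mature neutrophils in PD-L1 and AI-Exo. Their Chil1 level, at 108, 153 and 131 CPM, was above mature neutrophils in each library. Epithelial cells, with only 3, 3 and 6 barcodes in PBS, PD-L1 and AI-Exo, are not among the 11 classes either. Their Chil1 level, given below, was above that of both neutrophil classes in each library. They also held 50, 0 and 40 Retnla UMIs. These barcodes are too few to rank epithelial cells among the classes. By the middle value of the 3 libraries Retnla ranked first in C1q macrophages (90.2 to 373 CPM). This range overlapped that of type 2 conventional dendritic cells (0 to 188 CPM). In AI-Exo these dendritic cells were above C1q macrophages, at 188 against 90.2 CPM, with 148 Retnla UMIs from 1 barcode. For Chil3 the neighbours in the order below alveolar macrophages overlapped each other throughout.

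**Figure D1:**
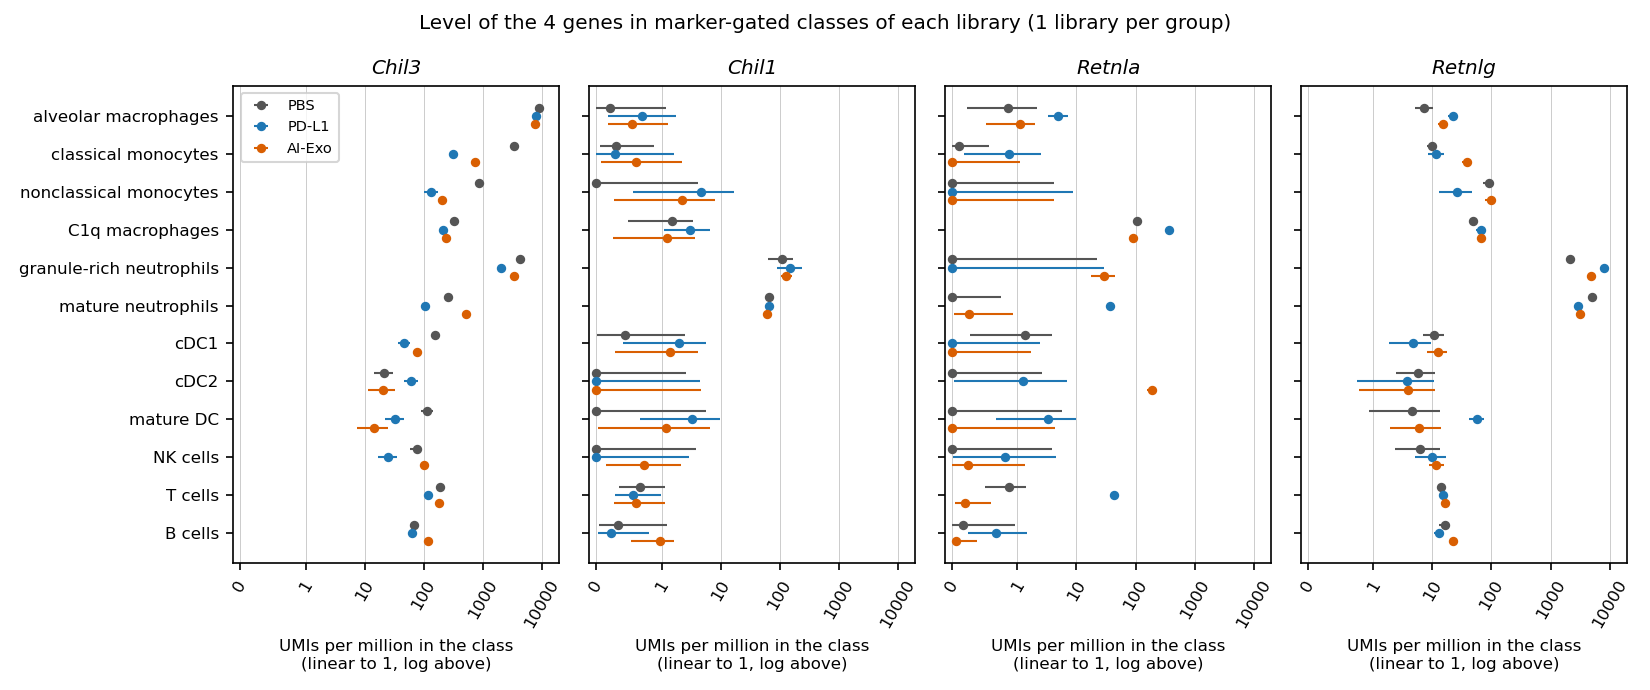
Level of each gene, in CPM, in 12 classes of the PBS, PD-L1 and AI-Exo libraries; points are single libraries, bars are exact 95% Poisson intervals, and the axis is linear up to 1 and logarithmic above. Chil3 spans alveolar macrophages, monocytes and granule-rich neutrophils, whereas Chil1 and Retnlg peak in neutrophils. Retnla peaks in C1q macrophages in PBS and PD-L1 and in type 2 conventional dendritic cells in AI-Exo.

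Chil3 was detected in nearly every alveolar macrophage. There were 429, 471 and 650 such barcodes in the PBS, PD-L1 and AI-Exo libraries, holding 43153, 45591 and 69751 Chil3 UMIs. Levels were 9161 CPM in PBS (9075 to 9248), 7952 in PD-L1 (7879 to 8025) and 7624 in AI-Exo (7568 to 7681). PBS was highest, by a ratio of 0.868 for PD-L1 over PBS (0.857 to 0.880) and 0.832 for AI-Exo over PBS (0.822 to 0.842), which is far from a 2-fold difference. When every barcode was thinned to 1000 UMIs, 99.5%, 98.5% and 98.1% of alveolar macrophages held a Chil3 UMI. The middle barcode carried 8636, 7338 and 6997 CPM. Dividing alveolar macrophages, with at least 2 of Mki67, Top2a, Birc5 and Cdk1, had 8323, 6951 and 7191 CPM, and the others had 9339.7, 8165 and 7852. Thus the dividing cells lay slightly below the rest in each library.

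Classical monocytes differed most in Chil3 level, in CPM, between libraries among the 11 classes ordered above. The 1146 barcodes of this class in PBS held 33440 UMIs, or 3381 CPM (3344 to 3417). In PD-L1, 599 barcodes held 1100 UMIs, or 318 CPM (299 to 337). In AI-Exo, 351 barcodes held 2474 UMIs, or 751 CPM (722 to 781). None of these intervals overlapped. Chil3 was 10.6-fold lower in PD-L1 than in PBS (10.0 to 11.3) and 4.50-fold lower in AI-Exo than in PBS (4.32 to 4.69). AI-Exo was 2.36-fold above PD-L1. Classical monocytes held 36.7% of all Chil3 UMIs of the PBS library, 1.94% of those of PD-L1 and 2.59% of those of AI-Exo. Alveolar macrophages held 47.4%, 80.3% and 73.0%.

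The difference was seen in the share of positive barcodes as well as in the summed level. After thinning, 59.8% of PBS classical monocytes held a Chil3 UMI (56.9 to 62.6), against 20.2% in PD-L1 (17.1 to 23.7) and 31.7% in AI-Exo (26.9 to 36.9); the unthinned shares were 75.7%, 45.1% and 64.4%. T cells, which should lack this RNA, gave thinned shares of 3.63%, 3.43% and 4.32% at median depths of 4396, 4722 and 4769 UMIs, and monocytes had medians of 8174.5, 4777 and 7928 UMIs. The middle PBS monocyte carried 1528 CPM of Chil3, the middle AI-Exo monocyte 258 and the middle PD-L1 monocyte 0. At the 90th percentile the values were 9831, 1844 and 818 CPM, ordered PBS, AI-Exo, PD-L1, and at the 10th percentile all were 0. In PBS 153 of the 1146 barcodes held 50% of the Chil3 UMIs. Of the PBS monocytes 9.34% exceeded 10000 CPM, a level that 37.3% of the alveolar macrophages of that library exceeded. Among PD-L1 monocytes none of 599 did, and among AI-Exo monocytes 0.285% did.

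**Figure D2:**
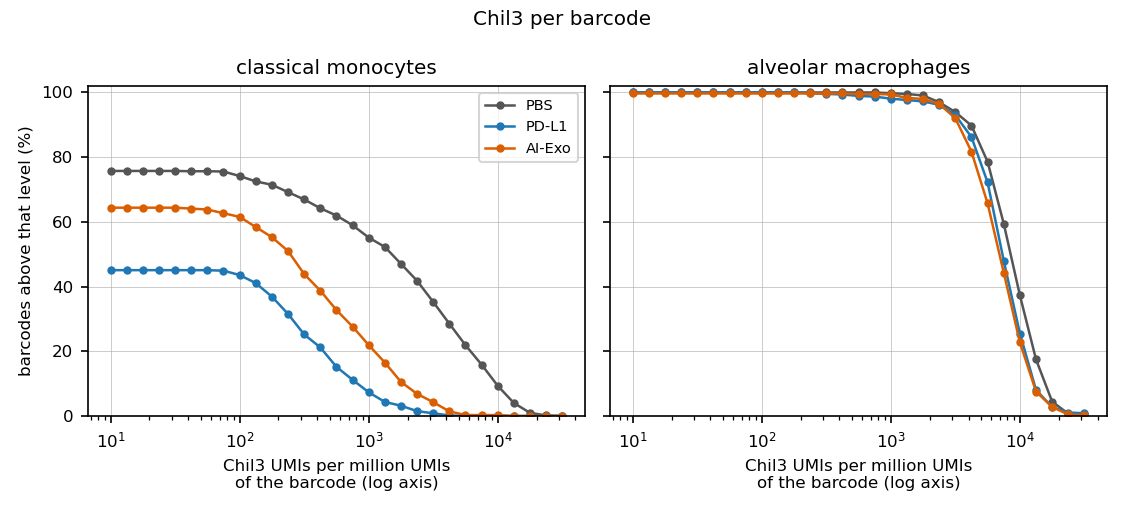
Percentage of barcodes (vertical axis) whose Chil3 level lies above the value on the logarithmic horizontal axis, in CPM of the barcode, for classical monocytes and alveolar macrophages of each library. In alveolar macrophages 37.3%, 25.5% and 22.8% of barcodes lie above 10000 CPM in PBS, PD-L1 and AI-Exo, and in classical monocytes 9.34%, 0% and 0.285% do.

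Libraries also differed in the depth and the marker content of these monocytes. The median barcode had 7, 5 and 6 of the 8 classical monocyte markers in PBS, PD-L1 and AI-Exo, and the markers summed to 3475, 3811 and 2743 CPM. Within 4 bands of depth Chil3 stayed lower than in PBS. In the shallowest band (medians of 2403, 2420.5 and 2132 UMIs) it was 1049.6, 138 and 160 CPM, a ratio of 0.131 for PD-L1 over PBS and 0.152 for AI-Exo over PBS. In the deepest band (medians of 13858, 14551 and 14910 UMIs) it was 2589, 342 and 885 CPM, with ratios of 0.132 and 0.342. Across bands from 3 to 7 or 8 detected monocyte markers the level ran from 466 to 3946 CPM in PBS, from 124 to 576 in PD-L1 and from 257 to 1018 in AI-Exo, highest at 7 or 8 markers in each. Ratios in these bands ran from 0.0806 to 0.266 for PD-L1 and from 0.194 to 0.552 for AI-Exo. The order PBS, AI-Exo, PD-L1 held in every band of depth and of marker number, although AI-Exo and PD-L1 overlapped in the shallowest band.

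Genes induced by interferon were also at different levels in these monocytes, so Chil3 was read within tertiles of their summed level, set over the classical monocytes of all libraries together. In the lowest tertile Chil3 stood at 4029, 154 and 575 CPM in PBS, PD-L1 and AI-Exo (567, 34 and 98 barcodes). The middle tertile gave 3068, 214 and 1005 CPM. In the highest tertile the values were 1514, 364 and 584 CPM (165, 426 and 108 barcodes). Hence PBS monocytes with more interferon-induced RNA had less Chil3, and PD-L1 monocytes of the highest tertile had more than the others. The lowest PD-L1 tertile held only 28 Chil3 UMIs, and its interval (103 to 223 CPM) overlapped that of the middle (184 to 248). Median depth over the PD-L1 tertiles also rose, at 3559, 4407 and 4956 UMIs, and its part was not tested. The PD-L1 ratio moved from 0.0383 in the lowest tertile to 0.241 in the highest, and the AI-Exo ratio from 0.143 to 0.385. What part interferon-induced genes have in the difference was not tested.

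**Figure D3:**
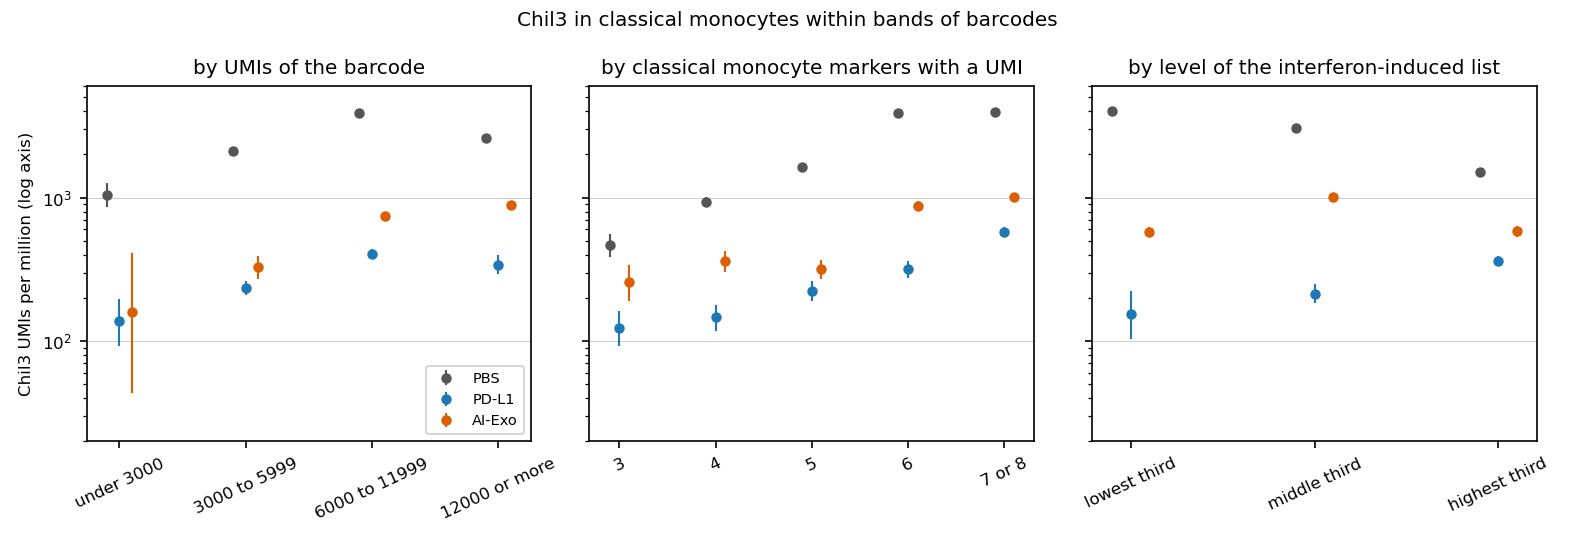
Chil3 level in classical monocytes, in CPM on a logarithmic axis, by UMIs of the barcode, by number of detected classical monocyte markers and by tertile of the interferon-induced genes; points are single libraries with exact 95% Poisson intervals. PBS is the highest library in each band, and AI-Exo lies above PD-L1 in each.

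Markers of other cells differed in these barcodes. Granule-rich neutrophil markers, from a class itself high in Chil3, summed to 556, 103 and 218 CPM in classical monocytes of PBS, PD-L1 and AI-Exo, the order of Chil3, and their part in the result was not tested. C1q macrophage markers summed to 1505, 1035 and 898 CPM. Within bands of 0, 1, 2 and 3 or more C1q markers the Chil3 ratio to PBS ran from 0.0778 to 0.129 for PD-L1 and from 0.152 to 0.260 for AI-Exo. The 8 alveolar markers summed to 31.7, 14.7 and 50.4 CPM in classical monocytes, and 0, 0 and 2 of 8 reached 10 CPM. In monocytes without any alveolar marker Chil3 was 3356, 311 and 754 CPM, ratios of 0.0926 and 0.225. Free RNA, taken from barcodes of at most 100 UMIs, was rich in Chil3, with 1665, 1116 and 1508 CPM. If all B cell marker UMIs in classical monocytes were free RNA, free RNA would make up at most 2.76%, 4.88% and 8.14% of their UMIs. It would then add at most 46.0, 54.5 and 123 CPM of Chil3, less than the measured level in each library.

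Nonclassical monocytes, the patrolling Ly6c2-low cells, showed the same order at lower levels. PBS had 770 UMIs in 189 barcodes (874 CPM), PD-L1 57 in 120 (134 CPM) and AI-Exo 183 in 182 (206 CPM). The ratio to PBS was 0.154 in PD-L1 and 0.236 in AI-Exo. Across the alternatives run, it lay between 0.106 and 0.222 for PD-L1 and between 0.0574 (free RNA subtracted) and 0.410 (a lead of 2 markers) for AI-Exo, 0.122 with clusters and 0.135 without the top barcode of each library. In AI-Exo 100 of the 183 UMIs came from 2 barcodes with at least 2 alveolar markers. Without any alveolar marker the levels were 851, 106 and 100 CPM.

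C1q macrophages, which carry complement C1q genes and are tissue macrophages other than the alveolar type, had little Chil3 apart from barcodes that also carried alveolar markers. The summed levels were 331, 217 and 236 CPM in PBS, PD-L1 and AI-Exo. Most of these UMIs, 767 of 1112, 377 of 435 and 476 of 563, lay in 11, 11 and 12 barcodes that also had at least 2 alveolar markers. In C1q barcodes with no alveolar marker the level was 55.8, 22.4 and 48.9 CPM. That is near the level in T cells with no alveolar marker, 55.9, 19.1 and 31.6 CPM. C1q macrophages with an Arg1 UMI had less Chil3 (93.9, 57.1 and 28.8 CPM) than those without (535, 262 and 299 CPM). With most UMIs of the class in the few barcodes that carry alveolar markers, the part of those barcodes in this contrast was not tested. Arg1 encodes arginase 1, a common companion of Chil3 in alternative activation.

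The Chil3 level of neutrophils was highest where many granule genes were on. In granule-rich neutrophils, the immature cells that make Camp, Ngp and Ltf, Chil3 reached 4354, 2045 and 3361 CPM in PBS, PD-L1 and AI-Exo, from 16, 17 and 58 barcodes. These levels were of the order of PBS classical monocytes. In all neutrophils, split by the number of granule markers left after thinning to 1000 UMIs, Chil3 stayed between 76.3 and 477 CPM with 0 to 3 markers. With 4 or more it was 4092, 1415 and 3086 CPM in PBS, PD-L1 and AI-Exo. Those barcodes held 841, 284 and 3338 Chil3 UMIs, beside 666, 373 and 1839 in the many barcodes with 0 markers. PD-L1 was lowest in this top band and AI-Exo was not the highest.

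Mature neutrophils held 1277, 784 and 4009 Chil3 UMIs, or 257, 105 and 517 CPM. PD-L1 was lower than PBS by a ratio of 0.407, which was 0.209 with clusters in place of gates and 0.0416 with free RNA subtracted, and AI-Exo was 2.01-fold higher than PBS (1.89 to 2.14). The thinned share of mature neutrophils with a Chil3 UMI had another order, at 8.90%, 3.94% and 8.22%. Markers of other cells moved with it. Granule markers summed to 1189.98, 1014 and 4146 CPM in this class, and alveolar markers to 66.2, 67.4 and 161 CPM, with 3, 3 and 7 of 8 at 10 CPM. In AI-Exo 1564 of the UMIs came from 36 barcodes with at least 2 alveolar markers. A further 1148 came from 127 barcodes with 3 or more granule markers and no alveolar one. In mature neutrophils with no alveolar and 0 or 1 granule markers the levels were 119, 48.1 and 78.8 CPM, so AI-Exo lay below PBS there, at a ratio of 0.663 (0.567 to 0.774). By the bound used for monocytes, free RNA could add at most 86.1, 97.7 and 179 CPM of Chil3 over all mature neutrophils. The PD-L1 and AI-Exo levels of the subset lie below these bounds. The 2.01-fold difference thus turned direction in that subset, which was chosen after its values were seen, and also when clusters replaced the gates (0.410).

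Chil1 was read mainly from neutrophils in all libraries, and its level summed over neutrophils differed little between them. Neutrophils of both kinds held 343 of 405 Chil1 UMIs in PBS, while the numbers were 521 of 647 for PD-L1 and 565 of 776 for AI-Exo. The levels were 66.8, 68.4 and 67.1 CPM. The ratio to PBS was 1.02 in PD-L1 (0.891 to 1.18) and 1.005 in AI-Exo (0.877 to 1.15). These intervals leave out a change of 1.5-fold in either direction by counting error, though not by differences between animals. The thinned share of mature neutrophils with a Chil1 UMI was 6.78%, 6.72% and 6.34%, against 0.0345%, 0% and 0% of T cells. Within neutrophils the gene was spread thinly, with 163 of 343, 256 of 521 and 220 of 565 UMIs alone in their barcode.

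Chil1 was also read from the few epithelial barcodes. The 3, 3 and 6 epithelial barcodes of PBS, PD-L1 and AI-Exo held 3, 33 and 49 Chil1 UMIs, or 109, 820 and 251 CPM. Such numbers are too small to rank the libraries. In granule-rich neutrophils Chil1 was at 108, 153 and 131 CPM, from 18, 19 and 86 UMIs. Mature neutrophils stood at 65.4, 67.0 and 61.7 CPM. Neutrophils low in Ccl3 and Cxcl3, chemokine genes of inflamed tissue neutrophils, had 77.5, 72.7 and 62.4 CPM, and those high in them had 48.5, 54.0 and 60.8. The gap between these states was wide in PBS and absent within counting error in AI-Exo.

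Retnla was a gene of very few cells. The libraries held 453, 1968 and 445 Retnla UMIs, and 19 barcodes with at least 5 UMIs carried 92.5%, 98.1% and 94.2% of them. Only 4 of 221, 7 of 162 and 5 of 180 C1q macrophages had any Retnla UMI. In PBS the highest barcodes were C1q macrophages with 271 and 72 UMIs and an epithelial barcode with 50 that also held 432 UMIs of Sftpc, the alveolar type 2 surfactant gene. In AI-Exo they were a C1q macrophage with 168, a type 2 dendritic cell barcode with 148, a C1q macrophage with 44 and an epithelial barcode with 40 and 44663 UMIs of Scgb1a1, the club cell gene. These barcodes of PBS and AI-Exo thus had macrophage, dendritic cell or lung epithelial markers.

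In PD-L1 the first of these barcodes held 868 Retnla UMIs, 44.1% of the library, among 34209 UMIs. It was gated as a T cell with 7 T cell markers but had 6 C1q markers as well and fell into the same cluster as the C1q macrophages with 640, 271 and 168 UMIs. The second, a C1q macrophage, held 640 UMIs. The third held 274 UMIs, had 8 neutrophil and 5 C1q markers, and gave 97.2% of the 282 Retnla UMIs in PD-L1 neutrophils. These barcodes hold most of the Retnla UMIs of T cells and neutrophils of PD-L1 in the plot of levels by class. A doublet of a macrophage and another cell and a single cell with both sets of markers cannot be told apart here. Free RNA held 3.20, 41.7 and 4.14 CPM of Retnla, so PD-L1 was highest there too.

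**Figure D4:**
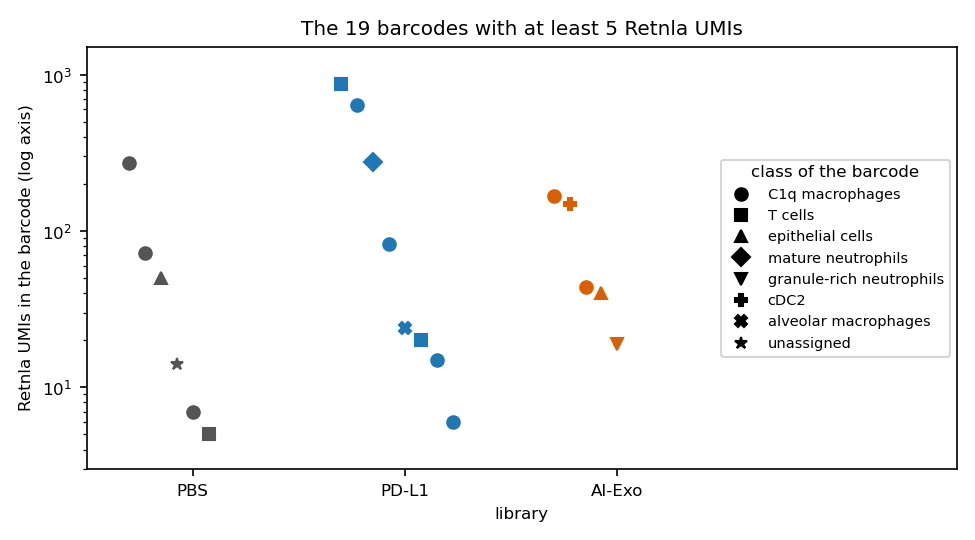
Retnla UMIs, on a logarithmic axis, of each of the 19 barcodes with at least 5 of them, by library, with symbols for the class of the barcode. The PBS library has 6, PD-L1 has 8 and AI-Exo has 5, and the top barcodes of PD-L1 hold 868, 640 and 274 UMIs.

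Summed over C1q macrophages, Retnla gave 351, 747 and 215 UMIs, or 105, 373 and 90.2 CPM. The ratio to PBS was 3.57 in PD-L1 (3.14 to 4.07) and 0.863 in AI-Exo (0.725 to 1.03). Because 1 barcode gave 77.2%, 85.7% and 78.1% of the class sum, the intervals describe UMIs and not cells. Without the highest barcode of each library the PD-L1 ratio was 2.24. The thinned shares of C1q macrophages with a Retnla UMI were 1.37% (0.283 to 3.95), 2.53% (0.694 to 6.35) and 1.13% (0.137 to 4.02), and did not differ beyond counting error.

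The barcodes highest in Retnla were mostly without its neighbour Retnlg, but some held both. The barcodes with 868, 640, 271 and 168 Retnla UMIs held 1, 0, 0 and 0 Retnlg UMIs. The PD-L1 barcode with 274 Retnla UMIs, which has 8 neutrophil markers, held 59 Retnlg UMIs. In AI-Exo the granule-rich neutrophil with 19 Retnla UMIs held 151, and in PBS the barcode of no class with 14 held 7. Conversely, PBS neutrophils held 25016 Retnlg UMIs and no Retnla UMI, which allows mature neutrophils up to 0.604 CPM of Retnla in that library, taking 3 counts as the limit that a count of 0 allows. No spill of Retnlg reads into Retnla was detectable in those cells at this depth, for all the likeness of the transcripts.

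Retnlg was the most abundant of the 4 genes in neutrophils. Neutrophils held 25016 of 27098 UMIs in PBS, with 23204 of 25912 for PD-L1 and 27601 of 34750 for AI-Exo. The levels were 4873 CPM (4813 to 4934), 3045 CPM (3006 to 3084) and 3279 CPM (3241 to 3318). PBS was highest, and the ratio to PBS was 0.625 in PD-L1 (0.614 to 0.636) and 0.673 in AI-Exo (0.662 to 0.685). AI-Exo and PD-L1 lay close together, at a ratio of 1.08. The differences lie outside counting error but under the 2-fold size used for calls.

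The share of mature neutrophils with Retnlg after thinning was 62.4%, 62.7% and 54.0% in the PBS, PD-L1 and AI-Exo libraries, with 0.794%, 0.737% and 0.698% in T cells. PBS and PD-L1 thus had the same share of positive barcodes while their summed levels differed. The middle barcode had 1466, 1214 and 874 CPM, the 75th percentile was 5473, 3522 and 3026 CPM, and the 90th was 13396, 7415 and 9205 CPM. Over 10000 CPM stood 13.4% of PBS neutrophils, 6.53% of PD-L1 and 9.49% of AI-Exo neutrophils. Neutrophils low in Ccl3 and Cxcl3 had 6344, 3237 and 3984 CPM, and those high in them had 3020.04, 2349 and 2089.8. Retnlg was lower in the chemokine-high state in each library.

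Retnlg differed with the number of granule markers in neutrophils, with a peak in the middle. With 0 markers it stood at 2299, 1924 and 1421 CPM in PBS, PD-L1 and AI-Exo, with 1 marker at 6914, 3990.5 and 4187, and with 2 at 14227, 8113 and 9548. With 3 markers it reached 24121, 14600.3 and 11484 CPM, from only 9, 11 and 17 barcodes. With 4 or more it was lower again, at 5499, 8808 and 6306 CPM (23, 28 and 88 barcodes). The peak at 3 markers was present in each of the 3 libraries. Chil3 behaved otherwise, being low up to 3 markers and highest at 4 or more. Chil1 lay between 44.4 and 151 CPM over the same bands. PBS was highest for Retnlg in the bands from 0 to 3 markers and lowest in the band of 4 or more.

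**Figure D5:**
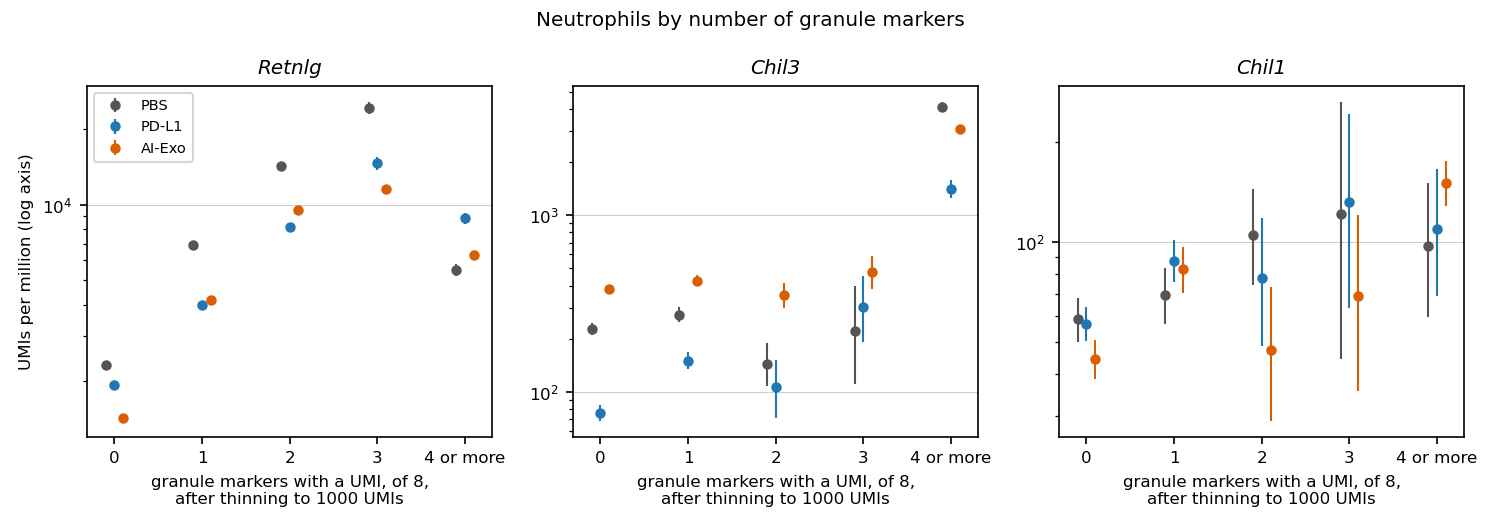
Levels of Retnlg, Chil3 and Chil1 in neutrophils, in CPM on logarithmic axes, by the number of 8 granule markers found after thinning each barcode to 1000 UMIs; points are single libraries with exact 95% Poisson intervals. Retnlg is higher with each marker up to 3 and lower at 4 or more, while Chil3 is highest at 4 or more.

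Within mature neutrophils the share of barcodes with Chil3 was lower where Retnlg was also found, in each library. Among barcodes with a Retnlg UMI after thinning, 7.81%, 3.39% and 5.88% had Chil3 in PBS, PD-L1 and AI-Exo. Among those without Retnlg it was 10.7%, 4.88% and 10.97%. In PD-L1 the share with Retnlg was near the thinned share of T cells given above. The 8, 14 and 36 mature neutrophil barcodes with at least 2 alveolar markers were not left out, and their part was not tested. For Chil1 the order was the reverse, with 8.04%, 7.5% and 6.95% with Retnlg and 4.69%, 5.42% and 5.63% without it. The exact binomial intervals overlapped in each of these comparisons apart from Chil3 in AI-Exo, where they were 4.38 to 7.69% and 8.77 to 13.5%.

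Outside neutrophils Retnlg was low and often came from few barcodes. In alveolar macrophages it was 7.22, 22.2 and 14.9 CPM, from 34, 127 and 136 UMIs, but 106 of the 127 UMIs in PD-L1 were in 1 barcode. In classical monocytes it was 9.91, 11.6 and 37.9 CPM, and 67 of the 125 UMIs in AI-Exo were in 1 barcode. C1q macrophages had 47.9, 65.4 and 66.7 CPM. B cells had 16.0, 12.95 and 22.3 CPM, so most values of classical monocytes and alveolar macrophages lie near the lymphocyte background. Gated nonclassical monocytes stood above it in PBS and AI-Exo, at 89.7, 25.9 and 97.9 CPM. With clusters in place of gates they had 9.60, 15.9 and 22.4 CPM, near the B cell values. Markers of mature neutrophils summed to 584, 863 and 838 CPM in the gated class, and their part was not tested.

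Counted against all genes with a mean of at least 10 CPM in the 2 libraries compared, few of the 4 genes passed 2-fold, and each share of all genes is given as background. These contrasts are the same that selected the genes, so nothing is read from the counts. In classical monocytes Chil3 and Retnlg reached 10 CPM. For PD-L1 over PBS none was higher (background 4.61% of 7324 genes) and Chil3 was lower (background 2.89%). For AI-Exo over PBS Retnlg was higher, at a ratio of 3.83 that rests largely on 1 barcode (background 2.71% of 7382 genes), and Chil3 was lower (background 1.46%). In C1q macrophages 3 of the 4 reached 10 CPM. Retnla was higher in PD-L1 (background 2.11% of 8118 genes) and none was lower (2.08%). In AI-Exo none was higher (1.90% of 8071 genes) or lower (2.38%).

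For alveolar macrophages Chil3 and Retnlg reached 10 CPM. Retnlg was higher in PD-L1 at a ratio of 3.07 (background 0.352% of 7670 genes) and in AI-Exo at 2.06 (background 1.15% of 7737 genes). The AI-Exo level of 14.9 CPM was below the 25.1 CPM that free RNA could add at most. With clusters in place of gates Retnlg was 35.1, 32.5 and 98.2 CPM in PBS, PD-L1 and AI-Exo. No member was lower in PD-L1 (0.222%) or AI-Exo (0.297%). In neutrophils all 4 reached 10 CPM in the PD-L1 comparison, and 3 in the AI-Exo one. With PD-L1, Retnla was higher through the barcode described above (background 2.02% of 6323 genes) and Chil3 was lower (background 1.42%). With AI-Exo none passed 2-fold, against a background of 2.16% of 6609 genes higher and 0.847% lower.

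Other genes of alternative activation gave a mixed picture beside Chil3. Of 20 such genes, with the members left out, 11 reached 10 CPM in classical monocytes. For PD-L1 over PBS 1 was higher and 4 lower by 2-fold (4.61% and 2.89% of all genes), with a median ratio of 0.628 against 0.9996 over all genes. AI-Exo over PBS gave 0 higher and 3 lower (2.71% and 1.46% of all genes), with a median of 0.593 against 1.03. Fn1, fibronectin, stood at 1158, 189 and 323 CPM in PBS, PD-L1 and AI-Exo, and Arg1 at 75.8, 11.6 and 27.3 CPM. Cd36, a scavenger receptor, had 53.9, 20.8 and 26.1 CPM. Mrc1, the mannose receptor CD206, had 40.7, 22.3 and 20.9 CPM.

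In C1q macrophages 16 of these genes reached 10 CPM for PD-L1 over PBS, with 0 higher and 7 lower (2.11% and 2.08% of all genes) and a median ratio of 0.613 against 0.944 over all genes. For AI-Exo over PBS there were 17, with 1 higher and 5 lower (1.90% and 2.38% of all genes) and a median of 0.697 against 0.954. Arg1 was 1031, 235 and 563 CPM and Mrc1 972, 314 and 207 CPM there, so Arg1 and Mrc1 were lower in PD-L1 while the Retnla sum was higher. Alveolar macrophages had 14 of them at 10 CPM. There 0 were higher and 3 lower for PD-L1 (0.352% and 0.222% of all genes), with a median of 0.900 against 0.977, and 0 higher and 2 lower for AI-Exo (1.15% and 0.297%), with a median of 0.782 against 0.968. Neutrophils had 10 and 11 of them. There 0 were higher and 3 lower for PD-L1 (2.02% and 1.42% of all genes), with a median of 0.718 against 0.903, and 1 higher and 0 lower for AI-Exo (2.16% and 0.847%), with a median of 1.095 against 1.05.

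The pathway known to induce Chil3 and Retnla, interleukin 4 and interleukin 13 with their receptors, kinases and STAT6, was listed together with related factors such as Klf4, Pparg, Cebpb and the receptors Csf2ra and Csf2rb. The list had median ratios near 1 in classical monocytes. Of 19 genes, 13 reached 10 CPM in classical monocytes for PD-L1, 2 of them higher and 0 lower (4.61% and 2.89% of all genes), with a median ratio of 1.01 against 0.9996. For AI-Exo 14 did, 1 higher and 1 lower (2.71% and 1.46%), with a median of 1.01 against 1.03. Il4ra, the shared receptor chain, was 38.7, 80.6 and 58.9 CPM in classical monocytes of PBS, PD-L1 and AI-Exo, lowest in PBS, where Chil3 was highest. Others had the highest level in PBS, as Chil3 did: Il13ra1, a chain of the interleukin 13 receptor, had 91.4, 50.3 and 72.2 CPM, the transcription factor Klf4 1449, 1049.7 and 724 CPM, and the kinase Jak1 602, 487 and 379 CPM. In C1q macrophages Il4ra was 119, 93.9 and 75.1 CPM. Il4 is among the 8 markers that gate basophils or mast cells, so its presence in that class is partly set by the gate. It had 17, 76 and 39 UMIs there, in 4, 12 and 8 barcodes. Il13, itself a gate marker of innate lymphoid cells, had 9, 9 and 0 UMIs in basophils or mast cells. Of the 7 reported receptors and partners of these proteins, 5 reached 10 CPM in each class compared and 0 passed 2-fold. By class and comparison, 0.222% to 4.61% of all genes passed it in a given direction, so nothing is read from that count.

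Interferon-induced genes were higher in PD-L1 classical monocytes, where Chil3 was lower. Of 15 measured, 12 were higher and 0 lower for PD-L1 over PBS (4.61% and 2.89% of all genes). The median ratio was 3.08 against 0.9996 over all genes. For AI-Exo 3 were higher and 0 lower (2.71% and 1.46%), with a median of 1.32 against 1.03. In neutrophils 13 of 15 were higher and 0 lower for PD-L1 (2.02% and 1.42% of all genes), with a median ratio of 4.14 against 0.903. For AI-Exo 1 of 15 was higher and 0 lower (2.16% and 0.847%), with a median of 1.27 against 1.05. Ifit3 in neutrophils was 36.8, 601 and 73.7 CPM in PBS, PD-L1 and AI-Exo. Their part in the levels of Chil3 and Retnlg was not tested.

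Neutrophil maturation genes, 14 in number, all reached 10 CPM in neutrophils. For PD-L1 over PBS 0 were higher and 5 lower (2.02% and 1.42% of all genes), with a median ratio of 0.585 against 0.903. For AI-Exo 5 were higher and 2 lower (2.16% and 0.847%), with a median of 1.25 against 1.05. Camp, the cathelicidin gene of specific granules, was 1710, 622 and 4482 CPM by library (PBS, PD-L1, AI-Exo), in the order seen for Chil3 in mature neutrophils. Ccl3 had another order, at 1643, 481 and 741 CPM. In classical monocytes 8 of the 14 reached 10 CPM. There 1 was higher and 4 lower for PD-L1 (4.61% and 2.89% of all genes). For AI-Exo 0 were higher and 4 lower (2.71% and 1.46%). Lcn2, another granule gene, was 272, 26.9 and 68.3 CPM there, the order of Chil3. Cd274 was lowest in PBS, at 84.9, 183 and 141 CPM, and Il1b was highest in PD-L1, at 939, 1333 and 960 CPM. Camp and Lcn2 are also gate markers of granule-rich neutrophils.

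Across 39 combinations of 15 classes and 3 libraries, the genes most like each member in log level were listed among 4610 genes, as a description only, since points of a library share its depth. Chil3 was most like Abcd2 (Pearson r 0.93), followed by Ms4a8a, Olr1, Tfec and Lyz2 (0.86 to 0.82). Chil1 was most like Mmp9 and Ly6g (both 0.97), and Retnlg like Mmp9 (0.96), Il1f9 and S100a9 (both 0.95). Retnla was most like Fcrls (0.82), then Ms4a7, C3ar1, C1qb and Ccl8 (0.71 to 0.69). Mmp9, Ms4a7 and C1qb served as class markers.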

How the data were processed

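The 3 libraries were deposited as unfiltered matrices of UMI counts, not normalized. Per the file headers the authors used Cell Ranger 7.1.0, but Cell Ranger 3.0.2 is the version in the submitters' processing notes. The genome build and annotation were not given in the sources used here, labels and headers included.

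The matrices held 68386729, 65997942 and 76512500 UMIs (PBS, PD-L1, AI-Exo). Barcodes with at least 500 UMIs, at least 200 genes and at most 20% mitochondrial UMIs were kept. A barcode took the class, of 20 with 8 markers each, with most markers detected, if at least 3 and more than in any other class. Neutrophils are the mature and granule-rich classes together. UMIs were summed over a class and divided by its total (CPM). The groups have 1 library each, so there is no test and no SD. Intervals are exact Poisson, Clopper-Pearson or conditional binomial at 95%, and UMIs of 1 cell are not independent. Shares were taken after thinning to 1000 UMIs. Genes with a mean of at least 10 CPM were counted past 2-fold, and the counting was tested on simulated data. Doublets were kept in the main values: Scrublet's automatic thresholds marked 1, 1 and 0 barcodes and so did not work. Alternatives covered the gate, depth minimum, a Scrublet score under 0.15, 28 Leiden clusters, free RNA, scaling and the barcode with most UMIs. Analyses used Python 3.11.15, numpy 2.4.6, scipy 1.17.1, pandas 2.3.3 and scanpy 1.11.5. From each list the text names genes by the 2 highest and 2 lowest ratios among those with at least 50 CPM in the higher library, besides a fixed set of related genes, and not all of these are printed. The members and the lists were chosen with earlier results of these data known.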

Additional observations from a re-analysis of the deposited data

Results flagged for a closer look

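Chil3 differed in direction between classes for AI-Exo over PBS. It was higher in mature neutrophils (ratio 2.01, but 0.410 with clusters in place of gates and 0.663 in barcodes with 0 alveolar and 0 or 1 granule markers) and lower in classical monocytes (0.222) and nonclassical monocytes (0.236). Retnlg did so for PD-L1 over PBS. Its ratio was 3.07 in alveolar macrophages, where 1 barcode held 83.5% of the PD-L1 UMIs, and 0.289 in nonclassical monocytes. Neither side of the Retnlg difference held with clusters in place of gates. Retnlg was then 35.1 and 32.5 CPM in alveolar macrophages of PBS and PD-L1, and 9.60 and 15.9 CPM in nonclassical monocytes. Neither difference between classes was tested, since each group has 1 library.

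Barcodes that fell into no class held UMIs of these genes outside the comparisons of the report. In PBS, PD-L1 and AI-Exo they had 817, 871 and 1362 CPM of Chil3 and 184, 307 and 747 CPM of Retnlg. Chil1 was at 4.68, 9.88 and 14.99 CPM in them. Retnla was at 3.68 CPM in PBS and 0.625 CPM in AI-Exo.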

How the results depend on the processing

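No paired analysis was possible because each group has 1 library and the labels give no replicate numbers, and no library could be left out. Of 80 alternative values of the 8 ratios on Chil3 in classical monocytes, Retnla in C1q macrophages, and Retnlg and Chil1 in neutrophils, 57 stayed within the counting interval, 23 moved, and no ratio whose interval left out 1 changed direction. Requiring a lead of 2 markers gave 0.101 and 0.204 for Chil3, 125 and 37.6 for Retnla, and 0.582 and 0.634 for Retnlg (PD-L1 and AI-Exo over PBS). Clusters in place of gates gave 0.0857 and 0.197, 9.30 and 1.27, and 0.653 and 0.724. Clusters took the class of most of their barcodes and were mixed. That for C1q macrophages held 461 barcodes gated as such among 1505, and those for mature neutrophils 49.0% to 99.1%. Retnla therefore has no stable ratio, since the top PBS barcodes lead by 1 marker, and its AI-Exo ratio lay on both sides of 1. Subtracting free RNA gave 0.0808 and 0.199 for Chil3 and 0.647 and 0.712 for Retnlg. Without the top barcode of each library, an alternative chosen after seeing the data, Chil3 was 0.205 in AI-Exo and Retnla 2.24 in PD-L1. Dropping Scrublet scores from 0.15 gave 0.206 for Chil3 in AI-Exo and 0.639 for Retnlg in PD-L1. Retnlg divided by the median gene was 0.692 and 0.640, and 0.701 in AI-Exo without mitochondrial, ribosomal, haemoglobin and S100a8 and S100a9 UMIs. Chil1 ranged from 1.01 to 1.13 and from 0.956 to 1.07. Chil3 in mature neutrophils, AI-Exo over PBS, reversed with clusters (0.410) and in barcodes with 0 alveolar and 0 or 1 granule markers (0.663). At a size of 1.5-fold Retnlg in neutrophils and Chil3 in C1q macrophages also counted as lower in PD-L1, and Chil3 in neutrophils as higher in AI-Exo. Ratios in classes with few UMIs, such as Chil3 in nonclassical monocytes of PD-L1, have wide counting intervals.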
